A study of Mus musculus with 8 samples.

Results

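The miR-29 family is a group of microRNAs (miRNAs, short RNAs that lower the output of messenger RNAs they pair with) known for their action on collagen and other extracellular matrix genes. Its members were taken by name from the array annotation as mmu-miR-29a-3p, mmu-miR-29b-3p, mmu-miR-29c-3p, mmu-miR-29a-5p and mmu-miR-29c-5p. All 5 were on the array, out of 1881 mouse miRNAs, and every one was read on all 8 arrays. The 3 members from the 3p arm were well above background on every array and were compared between the groups, and the 2 members from the 5p arm were too dim for that.

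The samples were exosomes, the small vesicles that cells release, isolated by size exclusion from the amniotic fluid of pregnant mice. In the LPS preterm group (n = 4), lipopolysaccharide, a bacterial wall component that sets off inflammation, was given into the abdomen on day 14 of pregnancy (100 μg per kg), and preterm birth came about 48 h later, with fluid taken from embryos whose water had not broken. The cesarean group (n = 4) was the control. The labels give both groups as day 17 of pregnancy, which the LPS timing does not settle, and they give no strain, genotype or age, no injection for the cesarean mice, and no word on whether replicates were separate animals or pooled litters. P-values therefore measure the spread between these samples, which may be partly technical.

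The number of miRNAs well above background ranged from 405 to 554 per array, and the overall signal (log2 of the 75th percentile, the value used for scaling) from 7.72 to 8.81. No miRNA spot was saturated. The arrays shared 1 slide, where each group filled a row of its own, so slide row and group cannot be told apart. No miRNA that defines amniotic fluid was among the lists used, so the labelled source was not checked that way.

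In the textbook account, each miR-29 hairpin is cut into a pair of arms, the 3p arm is the one mostly kept as the guide strand, and the seed near its 5′ end sets which messages it pairs with. Targets known for the family include fibrillar collagens, elastin and fibrillin, as well as the DNA methyltransferases Dnmt3a and Dnmt3b. The hairpins lie in a pair of genomic clusters, and transforming growth factor beta is known to lower the family in fibrosis.

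The mature sequences are shown because the 3 guide arms share a seed and differ elsewhere in only a few bases, which decides how far the array can tell them apart. They are written 5′ to 3′ from RefSeq (GRCm38.p6, the mouse genome build), with the seed, bases 2 to 8, in capitals, and all 5 members were matched there by name.
miR-29a-3p: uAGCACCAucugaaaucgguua
miR-29b-3p: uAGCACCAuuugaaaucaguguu
miR-29c-3p: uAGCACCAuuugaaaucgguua
miR-29a-5p: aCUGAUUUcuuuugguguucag
miR-29c-5p: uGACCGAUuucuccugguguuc

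The seed AGCACCA was found in 4 of the 1738 mature entries of the RefSeq table, and these were the 3 guide arms, with miR-29b-3p entered for both of its gene copies. No other miRNA in that table had this seed. Counted from 1 at the 5′ end, miR-29c-3p differed from miR-29a-3p by C10U alone. miR-29b-3p differed from miR-29c-3p by G18A, U21G and A22U, and it is 23 bases long where the other guide arms have 22. The 5p arms miR-29a-5p and miR-29c-5p have seeds of their own.

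The 4 hairpins are shown to place each arm in its precursor, with the 3p arm in capitals. Mir29a is at chr6:31062660-31062747 and Mir29b-1 at chr6:31063023-31063093, both on the minus strand with 275 bases between them. Mir29b-2 is at chr1:195037040-195037120 and Mir29c at chr1:195037547-195037634, both on the plus strand with 426 bases between them (all GRCm38.p6).
Mir29a: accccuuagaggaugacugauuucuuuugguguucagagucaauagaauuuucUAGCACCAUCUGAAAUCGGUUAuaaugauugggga
Mir29b-1: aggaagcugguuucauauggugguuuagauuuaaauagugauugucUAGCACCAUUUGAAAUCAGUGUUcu
Mir29b-2: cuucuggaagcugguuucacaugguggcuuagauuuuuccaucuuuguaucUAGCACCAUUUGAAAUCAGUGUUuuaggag
Mir29c: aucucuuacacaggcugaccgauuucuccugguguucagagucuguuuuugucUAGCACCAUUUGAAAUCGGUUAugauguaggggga

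Mir29b-2 and Mir29c lie inside the long non-coding RNA gene A330023F24Rik (chr1:195017399-195037908), and the gene table places Mir29a and Mir29b-1 inside no other gene. Because Mir29b-1 and Mir29b-2 give the same guide arm, a signal for miR-29b-3p cannot be assigned to either cluster. The array annotation lists the miR-29b-3p probe at both loci (on the older build mm9, chr6:31013071-31013091 and chr1:196863287-196863307).

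The probes that gave the values below are printed because they carry the few bases that separate the members. Each is the DNA complement of all or most of its miRNA, 5′ to 3′. The miR-29a-3p probe pairs bases 3 to 22, the miR-29b-3p probe bases 3 to 23 and the miR-29c-3p probe bases 1 to 22.
miR-29a-3p probe: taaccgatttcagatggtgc
miR-29b-3p probe: aacactgatttcaaatggtgc
miR-29c-3p probe: taaccgatttcaaatggtgcta

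Over the bases it pairs, the miR-29a-3p probe has 1 mismatch to miR-29c-3p and 4 to miR-29b-3p. The miR-29c-3p probe likewise has 1 mismatch to miR-29a-3p and 3 to miR-29b-3p. The miR-29b-3p probe stands furthest apart, with 5 mismatches to miR-29a-3p and 4 to miR-29c-3p. How much miR-29a-3p binds the miR-29c-3p probe, or the reverse, was not tested.

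Between LPS preterm birth and cesarean section, the 3 guide arms gave different pictures. miR-29b-3p read higher on every LPS array than on any cesarean array, by 1.80-fold, but did not pass the test across all miRNAs. miR-29c-3p and miR-29a-3p overlapped between the groups, at 1.21-fold and 1.03-fold. Of the 3 members tested, 0 passed a limma adjusted p of 0.05, against 23 of the 470 miRNAs tested (4.89%), and 1 of the 3 was higher at an unadjusted p of 0.05, against 65 of 470 (13.8%). Levels are log2 scaled intensity throughout, differences are LPS minus cesarean on that scale, and levels are not compared between probes of different miRNAs.

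miR-29b-3p, the guide arm made from both clusters, read 6.73, 6.91, 6.17 and 6.59 on cesarean replicates 1 to 4. On LPS replicates 1 to 4 it read 7.16, 7.91, 7.58 and 7.14. The lowest LPS array was above the highest cesarean array, a separation in this direction that 46 of the 470 miRNAs tested also had (9.79%). The means were 6.60 ± 0.32 and 7.45 ± 0.37 (SD, n = 4 each), a difference of 0.85 ± 0.27 (SE; 95% confidence interval 0.25 to 1.44). The limma adjusted p was 0.0812 (rank 56 of 470), so the call at 0.05 was not made.

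On the linear scale the miR-29b-3p probe gave 106, 120, 71.9 and 96.4 scaled units on the cesarean arrays. The LPS arrays gave 143, 240, 191 and 141. LPS replicate 2 was the highest and cesarean replicate 3 the lowest of the 8. Before scaling, the cesarean arrays gave 170, 150, 54.9 and 77.7 and the LPS arrays 116, 220, 278 and 106, so that without scaling the groups overlapped.

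A second, shorter probe for miR-29b-3p, with 20 letters, is dimmer and was near background. It was well above background on 2 of 4 cesarean and 3 of 4 LPS arrays. Its log2 values ran from 2.92 to 3.78 on cesarean arrays and from 4.02 to 4.81 on LPS arrays, without overlap, although the lower values lie under the floor of 3.75 used elsewhere. Because of that no fold is given, and both probes read the same RNA on the same arrays, so they are not independent samples. In the authors' deposited log2 table, miR-29b-3p was at 4.96 ± 0.31 and 5.87 ± 0.34 (SD, n = 4 each), a difference of 0.91.

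miR-29c-3p, the guide arm that lies beside Mir29b-2, read 6.59, 7.08, 6.29 and 6.77 on cesarean replicates 1 to 4. LPS replicates 1 to 4 read 7.20, 7.10, 6.90 and 6.63. The groups overlapped, with LPS replicates 1 and 2 just above all cesarean arrays and replicates 3 and 4 within their range. The means were 6.68 ± 0.33 and 6.96 ± 0.25 (SD, n = 4 each), a difference of 0.27 ± 0.25 (SE; 95% confidence interval -0.28 to 0.83; limma adjusted p = 0.528). The interval reaches from a slightly lower level to almost the full miR-29b-3p difference.

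miR-29a-3p, the guide arm that lies beside Mir29b-1, read 9.75, 10.42, 9.60 and 10.06 on cesarean replicates 1 to 4. LPS replicates 1 to 4 read 10.40, 10.05, 10.00 and 9.56. The highest array was cesarean and the lowest was LPS, so the groups lay over each other. The means were 9.96 ± 0.36 and 10.00 ± 0.35 (SD, n = 4 each), a difference of 0.040 ± 0.27 (SE; 95% confidence interval -0.56 to 0.64; limma adjusted p = 0.944). Its sign turned without scaling (-0.11) and with scaling to the spike-ins (-0.014).

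**Figure D1:**
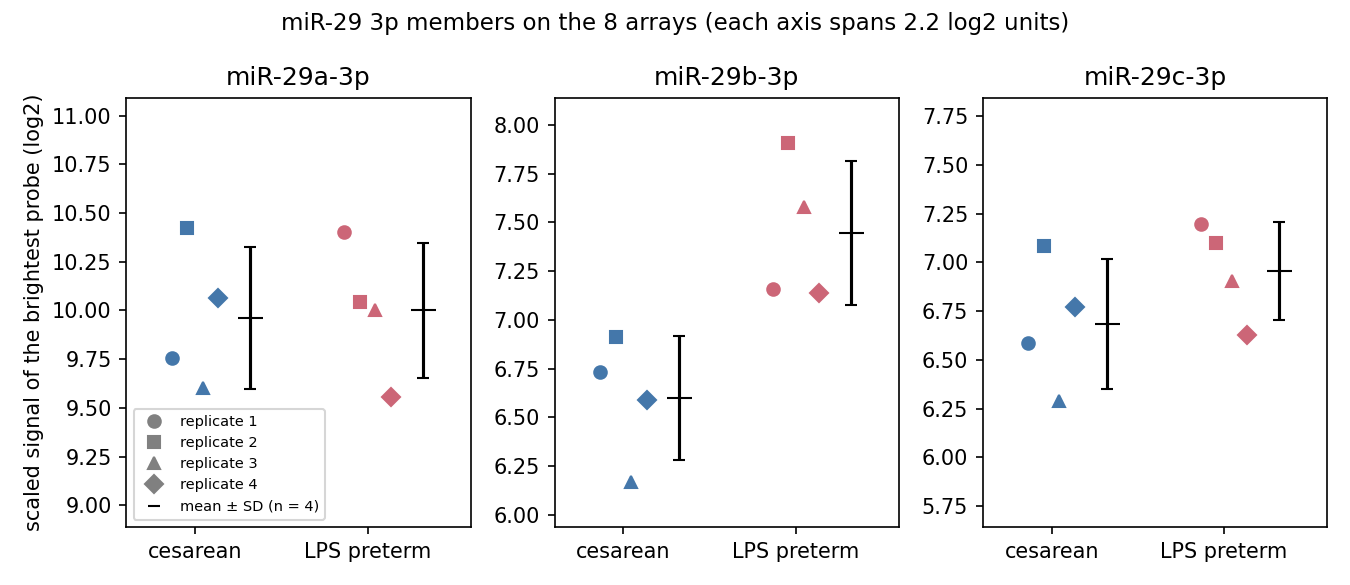
Log2 scaled intensity of the 3 guide arms (vertical axis, same span in each panel) for each cesarean and LPS preterm array, with points for replicates and bars for mean ± SD (n = 4). The miR-29b-3p points do not overlap between groups (6.17 to 6.91 against 7.14 to 7.91), and those of miR-29a-3p and miR-29c-3p do.

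Each column of the slide held 1 array of each group, which allows a difference inside each column. For miR-29b-3p these were 0.43, 0.998, 1.41 and 0.55 in columns 1 to 4, positive in all 4. miR-29c-3p gave 0.61, 0.016, 0.61 and -0.15, and miR-29a-3p gave 0.65, -0.38, 0.40 and -0.51. Every LPS array of miR-29b-3p was above every cesarean array, so its 4 signs were fixed whichever arrays shared a column. They add nothing to that separation. With the column as a block, the miR-29b-3p difference of 0.85 had a larger error (SE 0.32) and a limma adjusted p of 0.235. Without the block the adjusted p was 0.0812, and over all alternatives it ran from 0.0465 to 0.950.

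Ratios between members on one array ask whether the guide arms differed by unequal amounts, since the scaling factor of an array cancels in them. The 3 pairs of guide arms were compared. The log2 ratio of miR-29b-3p to miR-29a-3p was -3.02, -3.51, -3.44 and -3.47 on the cesarean arrays. It was -3.24, -2.14, -2.42 and -2.42 on the LPS arrays. LPS replicates 2, 3 and 4 were above all cesarean arrays, and LPS replicate 1 was below cesarean replicate 1. The difference in this ratio was 0.81 (1.75-fold; exact permutation p = 0.0571, adjusted over the 3 pairs 0.0571).

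The log2 ratio of miR-29b-3p to miR-29c-3p was 0.15, -0.17, -0.12 and -0.18 on the cesarean arrays. It was -0.04, 0.81, 0.68 and 0.51 on the LPS arrays. Again LPS replicate 1 alone among the LPS arrays lay inside the cesarean range, and the difference was 0.57 (1.49-fold; exact permutation p = 0.0571, adjusted 0.0571). The log2 ratio of miR-29c-3p to miR-29a-3p, the 2 arms with the C10U difference, was held within a narrow range, -3.34 to -3.17 on cesarean arrays and -3.21 to -2.93 on LPS arrays. Its difference was 0.23 (1.18-fold; exact permutation p = 0.0571, adjusted 0.0571).

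None of the 3 pairs passed 0.05 with all arrays. Compared within slide columns, each had an adjusted exact permutation p of 0.25, in a design of 4 columns that cannot go below 0.125. Without LPS replicate 1 the differences were 1.04, 0.75 and 0.29, in the order of the pairs above, each with an adjusted exact permutation p of 0.0286, the smallest that 3 against 4 arrays can give; over all alternatives the adjusted p ran from 0.0286 to 0.971 for both miR-29b-3p ratios and to 0.457 for the other. Without LPS replicate 1 the miR-29b-3p difference was 0.94 (SE 0.29) with a limma adjusted p of 0.0465, in a range of 0.0465 to 0.950 over all alternatives. Without LPS replicate 4 it was 0.95 (SE 0.28) with a limma adjusted p of 0.0933. The adjustment depends on all miRNAs tested. In place of 23, 79 passed without LPS replicate 1 and 25 without LPS replicate 4. The lower adjusted p without LPS replicate 1 therefore does not come from the miR-29b-3p values alone.

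**Figure D2:**
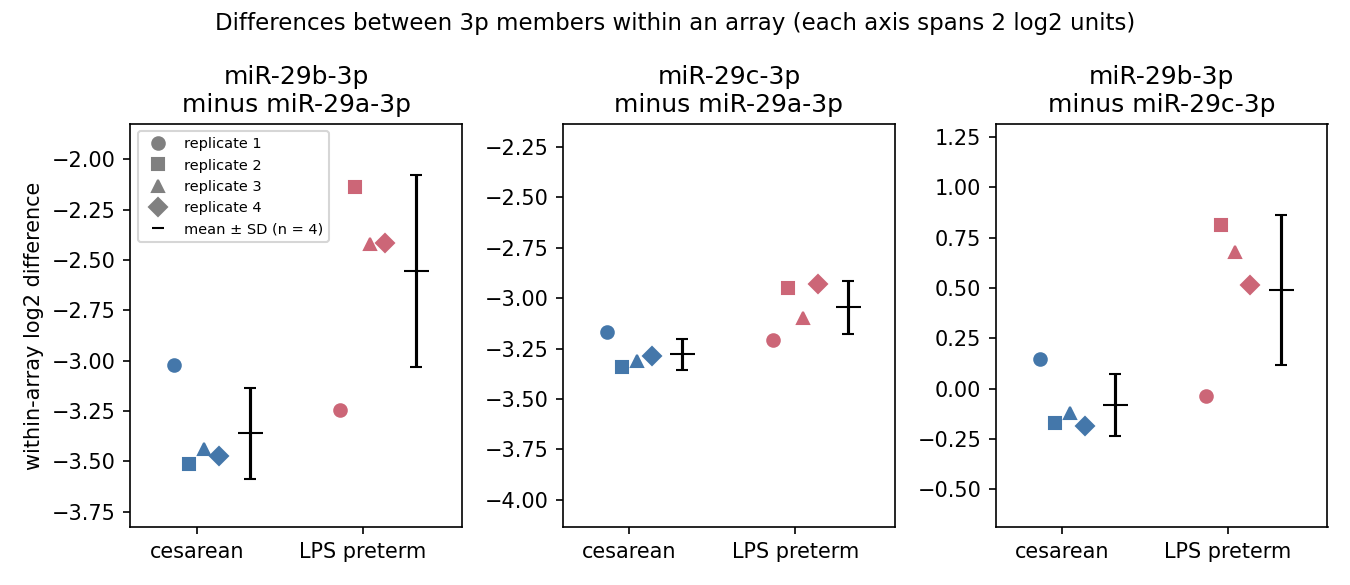
Log2 ratio of each pair of guide arms on each array (vertical axis), by group, with points for replicates and bars for mean ± SD (n = 4). In both miR-29b-3p ratios 3 LPS arrays lie above all cesarean arrays, and LPS replicate 1 lies among the cesarean arrays.

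Across the 8 arrays, miR-29c-3p and miR-29a-3p moved most closely together (Pearson r = 0.88, exact permutation p = 0.00466, adjusted over 3 pairs 0.0140; Spearman rho = 0.76, p = 0.0368, adjusted 0.0688). Without cesarean replicate 3 and LPS replicate 1 the r was 0.82. miR-29b-3p and miR-29c-3p gave r = 0.69 (exact permutation p = 0.0530, adjusted 0.0795) and rho = 0.74 (p = 0.0458, adjusted 0.0688). Without LPS replicate 2 and cesarean replicate 3, the highest and lowest arrays for miR-29b-3p, r was 0.31. Leaving out both ends of a range tends to lower r, so the drop does not show what the relation rested on. miR-29b-3p and miR-29a-3p gave r = 0.30 (exact permutation p = 0.473) and rho = 0.19 (p = 0.665). The 8 arrays share the scaling and hold both groups. The highest r joined miR-29a-3p and miR-29c-3p, which come from different clusters. Each of their probes has 1 mismatch to the other arm, and how far this raises r was not tested. Because miR-29b-3p comes from both clusters, these correlations cannot compare the clusters.

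Among the 338 miRNAs well above background on all 8 arrays, those outside the family most like each guide arm were listed by Pearson r, as a description. miR-29b-3p was closest to miR-151-5p (r = 0.988), miR-98-5p (0.970) and let-7d-5p (0.962). Of these, let-7d-5p, of the let-7 family that holds back growth, passed the test (difference 1.30 ± 0.27, SE; limma adjusted p = 0.0293), and miR-151-5p did not (0.76 ± 0.28; adjusted p = 0.135). miR-29a-3p was closest to let-7b-5p (0.914), miR-27a-3p (0.900) and miR-107-3p (0.874), whose differences lay between -0.014 and 0.089. miR-29c-3p was closest to miR-31-5p (0.916), miR-152-3p (0.904) and let-7g-5p (0.896).

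**Figure D3:**
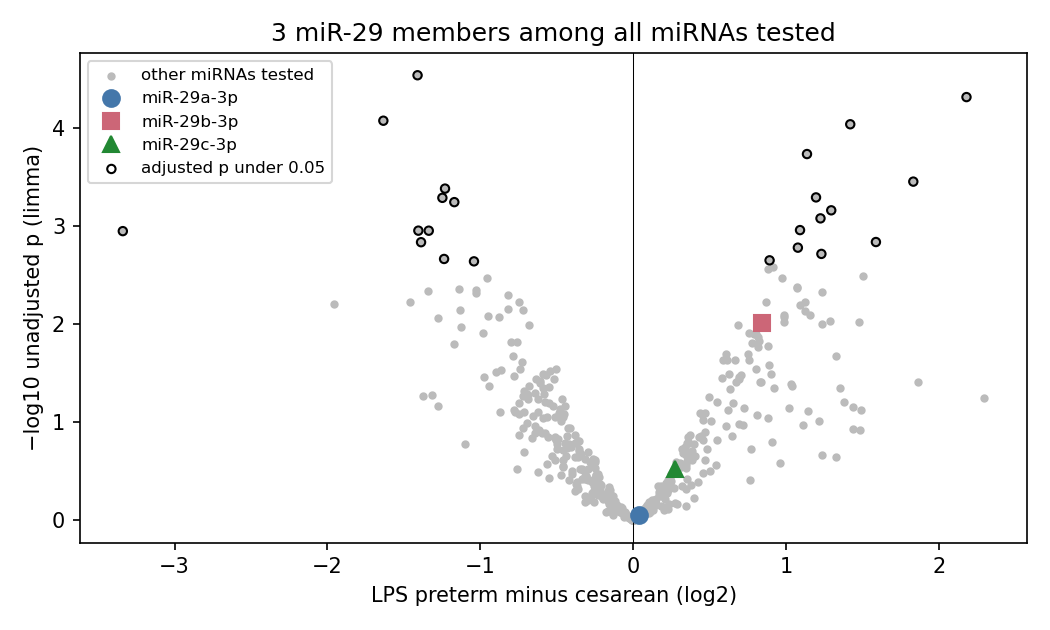
Difference between groups (horizontal axis, log2) against the negative log10 of the unadjusted limma p (vertical axis) for the 470 miRNAs tested, with the 3 guide arms marked and black rings for an adjusted p under 0.05. miR-29b-3p ranks 56 of 470, miR-29c-3p 265 and miR-29a-3p 441.

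The passenger arms were dim. miR-29a-5p, the strand usually discarded from Mir29a, was not well above background on any array by any of its 4 probes, with scaled signals from 0.456 to 3.77 against a floor of 13.5. miR-29c-5p, its counterpart from Mir29c, was well above background on 0 of 4 cesarean arrays and on 1 of 4 LPS arrays (replicate 3, on 66.7% of spots). Its longer probe gave scaled signals of 6.52, 3.70, 6.85 and 3.93 on the cesarean arrays and 6.28, 13.7, 9.26 and 12.6 on the LPS arrays. LPS replicates 2, 3 and 4 were thus above all cesarean arrays, but only the value on replicate 2 exceeded the floor, so no fold is given.

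In the authors' deposited log2 table miR-29c-5p was at 2.42 ± 0.13 (2.29 to 2.58) and 2.88 ± 0.17 (2.68 to 3.08) for cesarean and LPS (SD, n = 4 each), where the column medians over all miRNAs were 2.13 to 2.14. miR-29a-5p was at 2.26 ± 0.048 and 2.28 ± 0.11 there. The other arms of the b hairpins, which are not members, were as dim: miR-29b-1-5p was well above background on LPS replicate 3 only and miR-29b-2-5p on no array. For miR-29c-5p the deposited values and the shorter probe (1.44 to 4.11 against 4.41 to 6.37 scaled units, under the floor on all arrays) did not overlap between the groups, and the longer probe did. No test was made of the passenger arms, whose signals were at or near background.

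The scanner software also reports a total per miRNA, and for this family it mixed members. On cesarean replicate 3 the total for miR-29b-3p was 262, where its own probes summed to 17.6. That total equalled, within 0.1%, the miR-29a-3p total of 246 plus 15.95 from the brightest miR-29b-3p probe. On the other 7 arrays it equalled the sum of its own probes. The miR-29c-5p total likewise equalled the miR-29c-3p total plus 1 probe of its own on 4 of 8 arrays, for example 87.6 on cesarean replicate 1 where its own probes summed to 4.93.

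With those software totals the miR-29b-3p difference was -0.10 (limma adjusted p = 0.950), and with the sum of its own probe totals it was 0.85 (adjusted p = 0.112). Both are alternatives, and the range over all alternatives was 0.0465 to 0.950. On a given array, 76 to 127 of the 1881 miRNAs had a software total above 20 and over 1.5 times the sum of their own probes. The values in the text come from single probes and not from these totals.

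**Figure D4:**
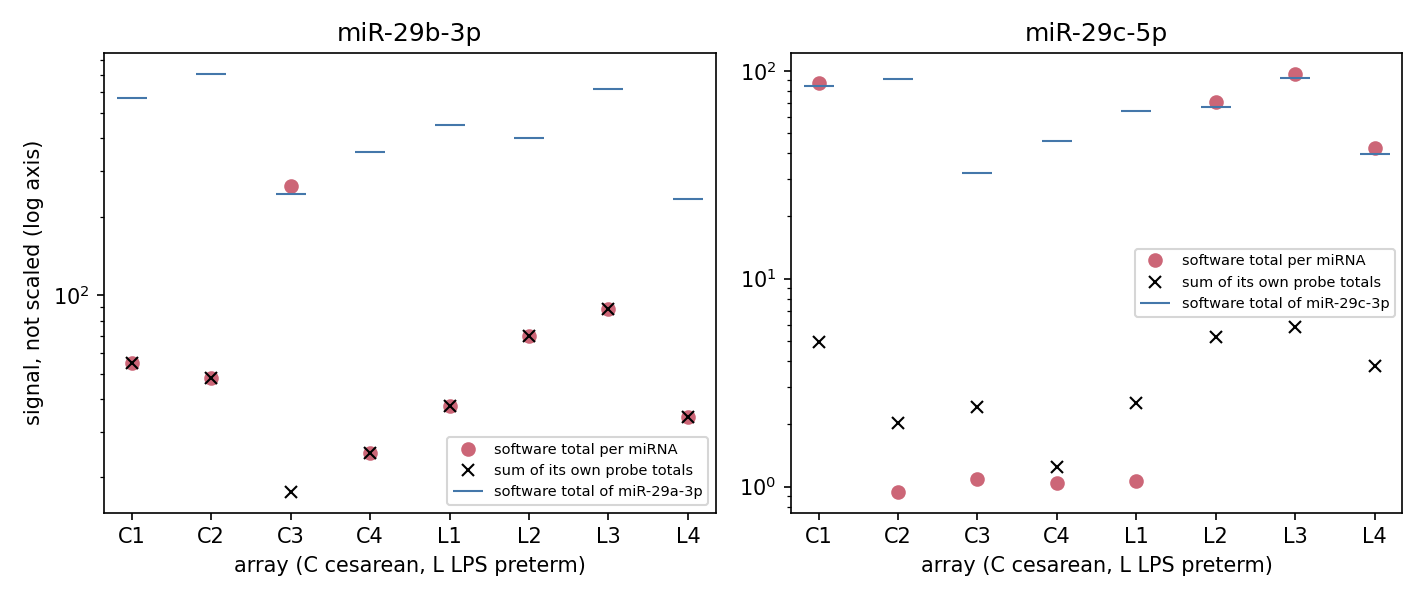
Scanner software total (points), sum of the miRNA's own probe totals (crosses) and software total of the sister miRNA (lines) on each array, in unscaled signal on a log axis, for miR-29b-3p and miR-29c-5p. For miR-29b-3p points and crosses coincide on 7 arrays and part on cesarean replicate 3 (262 against 17.6), and for miR-29c-5p the points sit at the miR-29c-3p line on 4 of 8 arrays.

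Other miRNAs known to act on matrix or fibrosis were taken from a list of 22, chosen with earlier results of these data known, so its counts are no independent support. All 22 were tested, 5 rose and 0 fell, where 12 of all 470 rose (2.55%) and 11 fell. The median difference was 0.37 against -0.06 over all 470. By sign alone 16 of the 22 were higher and 6 lower. The lowest were miR-214-3p (-1.34), miR-18a-5p (-1.17) and miR-199a-5p (-1.03), with limma adjusted p between 0.0640 and 0.106. Those that rose were let-7d-5p (1.30), miR-200a-3p (1.23), miR-192-5p (1.20), miR-155-5p (1.09) and miR-200b-3p (1.08), with limma adjusted p between 0.0266 and 0.0449. None of these 5 calls held with the slide column as a block (adjusted p 0.125 to 0.171) or with scaling to the spike-ins (0.357 to 0.404), and over all alternatives their adjusted p ran from 0.0140 to 0.404. miR-155-5p is induced in inflammation and miR-200a-3p and miR-200b-3p hold epithelial identity. The 3 miRNAs of the miR-148 and miR-152 family, known to act on the methyltransferase Dnmt1, were tested (differences 0.10 to 0.36, median 0.24). Of these 0 passed, against 23 of all 470 (4.89%), a share too small for 3 miRNAs to be set against.

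Markers of cells that could release vesicles into the fluid were read on the same arrays, and their part in the miR-29b-3p difference was not tested. The epithelial list means did not overlap between the groups. In such bulk samples, fewer vesicles of a type and less RNA per vesicle cannot be told apart. Of the 5 epithelial markers (miR-200 family) 3 rose, against 12 of all 470 miRNAs tested (2.55%). All 5 were higher without overlap, against 46 of 470 (9.79%). The mean of the list was 6.54 to 7.09 on cesarean and 7.60 to 8.28 on LPS arrays, and no such share was computed for list means. The marker lists were chosen with earlier results of these data known, so their counts are no independent support. Of the 3 red blood cell markers 1 rose, miR-144-3p, which was at the floor on all cesarean arrays. The list mean was 7.92 to 8.60 against 8.78 to 9.38. Those means do not overlap, but they include the floored miR-144-3p, and miR-451a and miR-486a-5p each overlapped between the groups. Of the 5 mesenchyme and smooth muscle markers 0 passed, against 23 of all 470 (4.89%). The list was split by sign, with 2 markers higher and 3 lower. miR-143-3p (0.62) and miR-145a-5p (0.71) were higher. miR-199a-3p (-0.98), miR-199a-5p (-1.03) and miR-214-3p (-1.34) were lower. Their median difference was -0.98, with list means of 7.30 to 8.20 against 6.98 to 7.79, which overlap.

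The remaining marker lists also overlapped between the groups or rested on 1 miRNA. Of 5 leukocyte markers 3 were tested and 1 rose, miR-142a-3p, where 12 of all 470 rose (2.55%). The others tested, miR-223-3p (difference 0.09) and miR-342-3p (-0.45), did not pass, so the list did not move together. The leukocyte list means were 6.62 to 7.03 against 6.92 to 7.52. The 4 striated muscle markers gave 0 calls, against 23 of all 470 (4.89%), and list means of 6.05 to 7.04 against 5.07 to 8.67. The liver miRNA miR-122-5p read 3.75 to 7.02 against 5.04 to 9.81 (limma adjusted p = 0.212). For endothelium 1 of 2 was tested, miR-126a-3p (difference -0.09), and for neural cells 1 of 3, miR-9-3p, which was lower. It read 6.45 to 9.97 on cesarean arrays and 5.56 on LPS replicate 1, and was at the floor on the other 3 LPS arrays, so no size is given (limma adjusted p = 0.0329). Of the marker calls, those for miR-200a-3p, miR-200b-3p, miR-200c-3p, miR-144-3p and miR-142a-3p were lost with the slide column as a block (limma adjusted p 0.0868 to 0.171), and that for miR-9-3p was kept (0.00462); with spike-in scaling all 6 were lost (0.0735 to 0.402). Over all alternatives the adjusted p of these 6 ran from 0.000175 to 0.402. The adjusted p of miR-144-3p and of miR-9-3p depends on the floor, where most or all arrays of 1 group lay. On the cesarean arrays miR-142a-3p was also close to the floor (4.06 ± 0.21, SD, n = 4). None of these calls is read as support, with or without the block.

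**Figure D5:**
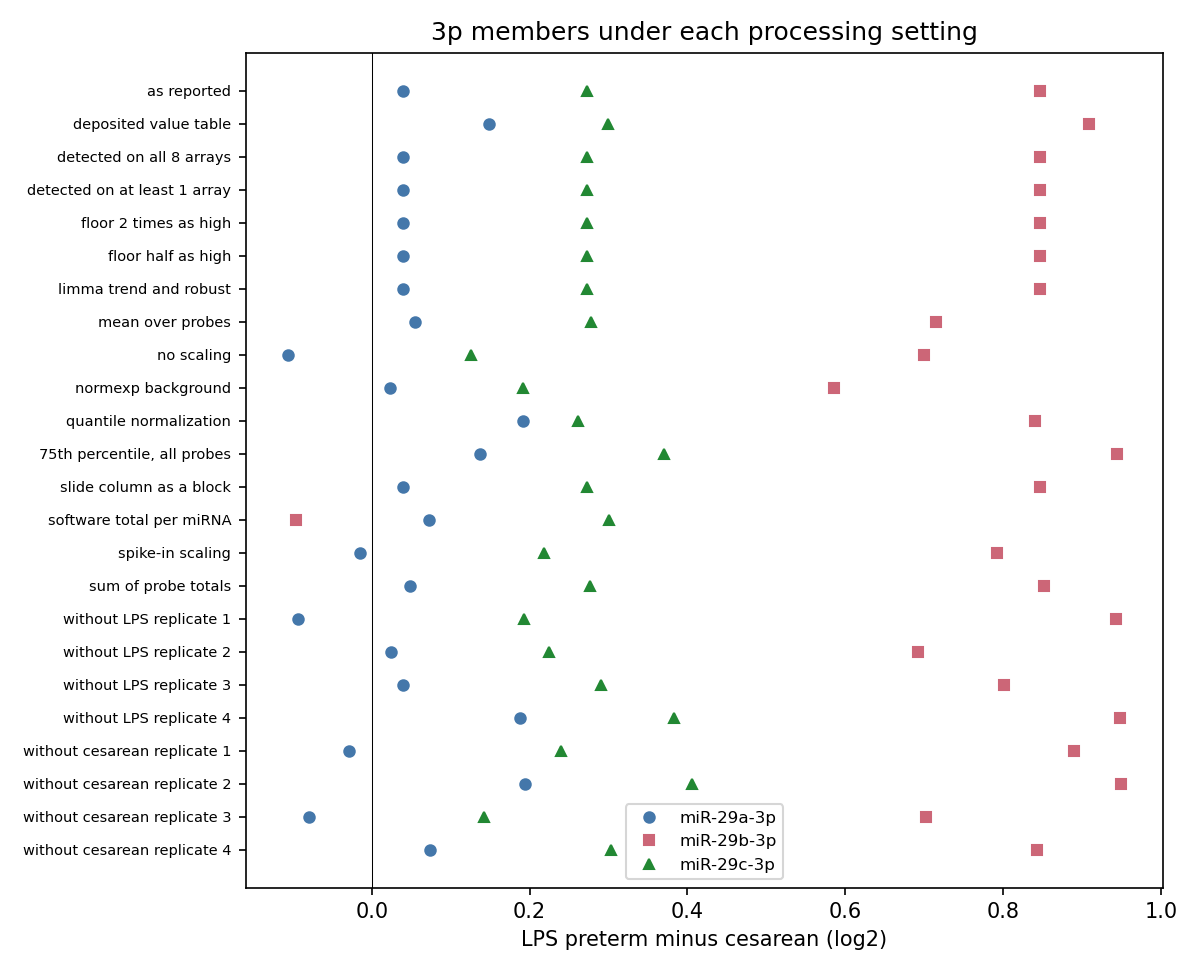
Difference between groups for the 3 guide arms (horizontal axis, log2, LPS minus cesarean) under each processing setting (vertical axis). miR-29b-3p stays between 0.59 and 0.95 except with the software total (-0.10), and miR-29a-3p lies on both sides of 0.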

How the data were processed

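Single-colour Agilent miRNA arrays of 8 samples were used, 4 per group by the labels. The intensity values were deposited as linear, background-subtracted spot signals, read with Agilent Feature Extraction 10.7.1.1 per the file headers, while the submitters' processing notes name version 9.1. The deposited log2 table of 1881 miRNAs was normalized by the authors, with method not given in the sources used here; it served as an alternative. Per the labels' protocols 0.5 μg of RNA was labelled as cRNA, and how the miRNAs were labelled is not given there. Control spots and spots with outlier marks (2.99% to 3.48% of miRNA spots) were left out. A probe was well above background where a share of at least 0.5 of its spots was. Each array was scaled to its 75th percentile over the 618 probes seen on all arrays, and signals were raised to a floor of 13.5 (3.75 on the log2 scale) and put on the log2 scale, and the brightest probe stood for a miRNA. The 470 miRNAs well above background on at least 3 of 4 arrays of either group were fitted with limma 3.58.1 in R 4.3.3 (lmFit, eBayes, two-sided, Benjamini-Hochberg over all 470). The fit was first tested on simulated data. The simulated shifts were larger than the differences of the guide arms, so that test does not show how well such differences are found. Ratios and correlations were tested by two-sided exact permutation in Python 3.11.15 with scipy 1.17.1, adjusted over 3 pairs. The labels pair no samples. Replicate numbers follow the order of deposition, which is also the slide column, and the column as a block was an alternative. The number of arrays limits the precision.

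The members and lists were chosen with earlier results of these data known. Named were all members, other arms of their hairpins, miRNAs with the same seed, list members past the threshold or with the up to 3 smallest p, and the 3 miRNAs most correlated with each guide arm. Lists covered matrix and fibrosis, Dnmt1, and markers of 8 cell types. Alternatives covered scaling, background, floor, filter, summary per miRNA, the slide column as a block and each array left out; the sum of probe totals and the shorter miR-29b-3p probe were added after seeing the data.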

Additional observations from a re-analysis of the deposited data

Results flagged for a closer look

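The log2 ratio of miR-29b-3p to miR-29a-3p was picked out because 1 cesarean array stood far from the other 3. Cesarean replicate 1 was at -3.02, and the other 3 lay between -3.51 and -3.44, so the gap took up a share of 0.845 of the group's range, above Dixon's critical value. Chance picks out about 1 in 20 groups by this measure.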

How the results depend on the processing

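The miR-29b-3p difference of 0.85 was positive under 23 of 24 alternatives. It was -0.10 with the software total, where the cesarean replicate 3 value holds the miR-29a-3p total. Many of these alternatives could not turn its sign, so the count is no measure of support. The filter, floor and slide column settings left the difference of each guide arm unchanged. Leaving out an array could not turn the miR-29b-3p sign, since every LPS array was above every cesarean array. Among the limma fits the miR-29b-3p difference passed only without LPS replicate 1 (0.94), and leaving out each array gave 0.69 to 0.95. It was 0.59 with normexp, 0.70 without scaling and 0.79 with spike-in scaling. miR-29c-3p was positive under every alternative (0.13 to 0.41). miR-29a-3p turned to -0.11 without scaling and -0.014 with spike-in scaling, and leaving out each array gave -0.094 to 0.19, below 0 without LPS replicate 1, cesarean replicate 1 or cesarean replicate 3. The median of all miRNAs was -0.20 without scaling and -0.14 with spike-ins, against -0.06. With the software total the miR-29b-3p ratios were -0.17 to miR-29a-3p and -0.40 to miR-29c-3p; leaving out each array gave 0.67 to 1.04 and 0.47 to 0.75, and 0.19 to 0.29 for miR-29c-3p to miR-29a-3p. The count of 23 became 15 among miRNAs detected on all 8 arrays, 36 with quantile normalization, 13 with the percentile over all probes, 9 with normexp, 8 with the software total, 1 without scaling and 1 with slide columns blocked. It was 0 by limma with spike-in scaling (56 at an unadjusted p of 0.05) and 3 to 79 when each array was left out. For these counts and for miR-29a-3p the cause was not tested. The passenger arms had no tested difference, since their signals were near background.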
